A study of Mus musculus with 5 samples.

Results

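The synaptic vesicle release machinery is described here across 44 genes: SNARE proteins and complexins, synaptotagmins and other calcium sensors, active zone scaffolds, Rab3 GTPases and proteins of the vesicle membrane. The genes were taken from a fixed list of symbols, and all 44 of them matched a row among the 23234 gene rows of the authors' deposited table. The RNA came from GFP-positive cells sorted out of CD1 mouse embryonic cortex, labelled as pyramidal cells, the excitatory projection neurons of the cortex. The control group (2 samples) received a GFP-only construct by electroporation at E12.5, and the other group (3 samples) received Ptf1a together with GFP at the same age. Cells of both groups were harvested at E15.5, which is 3 days later, and each sample pooled 3 to 6 brains. The promoter that drives the constructs is not given in the sources used here. The pyramidal label was checked against 12 marker genes, all of which had a test. Neurod6 stood at 1717 FPKM in the control and 1190 FPKM with Ptf1a, and Tbr1 and Bcl11b lay between 6.12 and 15.1 FPKM in either group, while Slc17a7 (2 and 1.39 FPKM) and Cux2 (1.07 and 1.39 FPKM) were weak. Defining markers of the labelled class were thus present, but so was Fabp7, a radial glia marker, at 1652 FPKM in the control and 3095 FPKM with Ptf1a.

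At a presynaptic terminal, a vesicle is tethered by Rab3 and its effectors to a scaffold called the active zone and is primed by Munc13 proteins. Syntaxin and SNAP-25 on the plasma membrane and VAMP on the vesicle then zip into a SNARE complex, which complexin holds ready until synaptotagmin binds calcium and fusion follows. In the embryonic cortex most of these genes switch on as progenitors become neurons, before mature synapses have formed, and several of them also serve axon growth and dense-core vesicles.

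Values are the authors' FPKM per group (fragments scaled to transcript length and library size), control first and Ptf1a second. The table merges the samples of a group into a single value, so no value per sample and no spread between samples could be given here. The words rose and fell are used only of genes whose deposited q (the authors' Cuffdiff p, adjusted over all tested genes) was under 0.05. Log2 differences are log2(FPKM + 0.1) with Ptf1a minus control, and the added 0.1 understates the change of weak genes. The deposited log2 fold divided by the test statistic is used as an implied standard error.

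Ptf1a misexpression was accompanied by uneven changes in the release machinery, with falls in abundant genes and rises mostly in weak ones. This tilt with abundance is not particular to these genes: the whole table showed it, as the next paragraph gives. The 14 fallen members had a median level of 13.3 FPKM (mean of both groups, range 1.41 to 467) and the 7 risen members one of 1.3 FPKM (range 0.466 to 52). Of 35 tested members, 14 fell and 7 rose, and 14 were not called. With the deposited test statistic read as a normal deviate, 2 of them fell (Stx1a and Syt4) and 1 rose (Syt6), beside 2.8% and 3.3% of all tested genes, so 18 of the 21 calls rest on the authors' p values. Together 21 of 35 were called, beside 37.7% of all tested genes. Over all 11876 tested genes 19.1% fell and 18.7% rose, against 40% and 20% of the tested members. The changes were moderate: fallen members changed by 1.24 to 1.85-fold, with a median of 1.5-fold, and 0 of them reached 2-fold. Among the risen members only Syt6 changed by more than 2-fold. The median log2 difference was -0.14 over tested members and -0.01 over all tested genes. The other 9 members had no test and stood at or below 0.596 FPKM in both groups. In a bulk sample fewer cells of a type and less RNA per cell cannot be told apart.

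Abundance moved with the direction of change across the whole table, and every count given here is to be read beside these values. Tested genes were split into 10 bins of mean FPKM. The median log2 difference ran from 0.47 in the lowest bin to -0.32 in bin 10, in which 58.2% of genes fell and 3.79% rose. Of the 18 members in the upper 5 bins 11 fell and 2 rose, beside 29.7% and 12% of all tested genes in those bins. Of the 17 members in the lower 5 bins 3 fell and 5 rose, beside 8.37% and 25.3% of all tested genes there. With the median of its bin subtracted, 13 of the 14 fallen members were still below 0 and all 7 risen members above it. The exception was Rab3a, whose log2 difference of -0.32 equalled that of its bin. Bsn, a risen member, stood above its bin by only 0.01. These members were picked by their call, so that count was largely set beforehand. Over all 35 tested members, called or not, 22 were below the median of their bin, beside 5936 of the 11876 tested genes. The part of abundance in the members' changes was not tested.

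**Figure D1:**
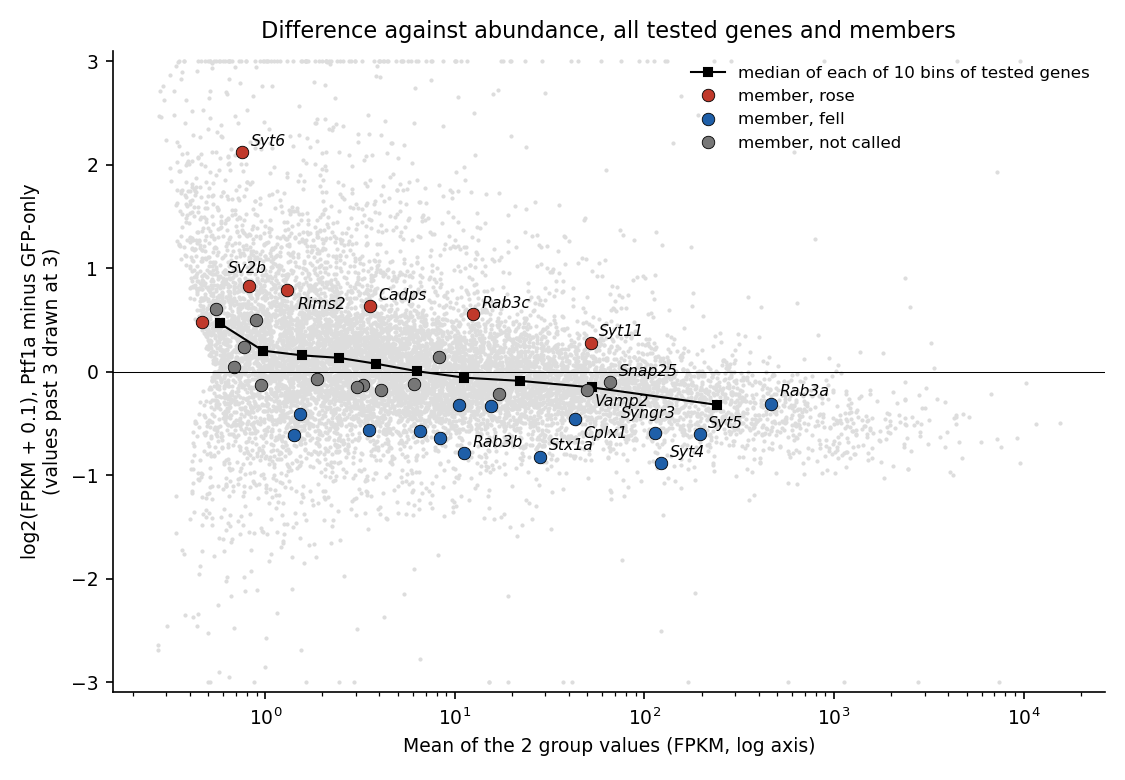
Log2(FPKM + 0.1) difference (Ptf1a minus GFP-only) against the mean of both group values in FPKM on a log axis, for all tested genes (grey dots), the 35 tested members (large points, coloured by call) and the median of each of 10 bins (black squares). The bin medians slope from 0.47 to -0.32, Syt6 stands far above them, and Syt4, Stx1a and Rab3b lie below them.

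**Figure D2:**
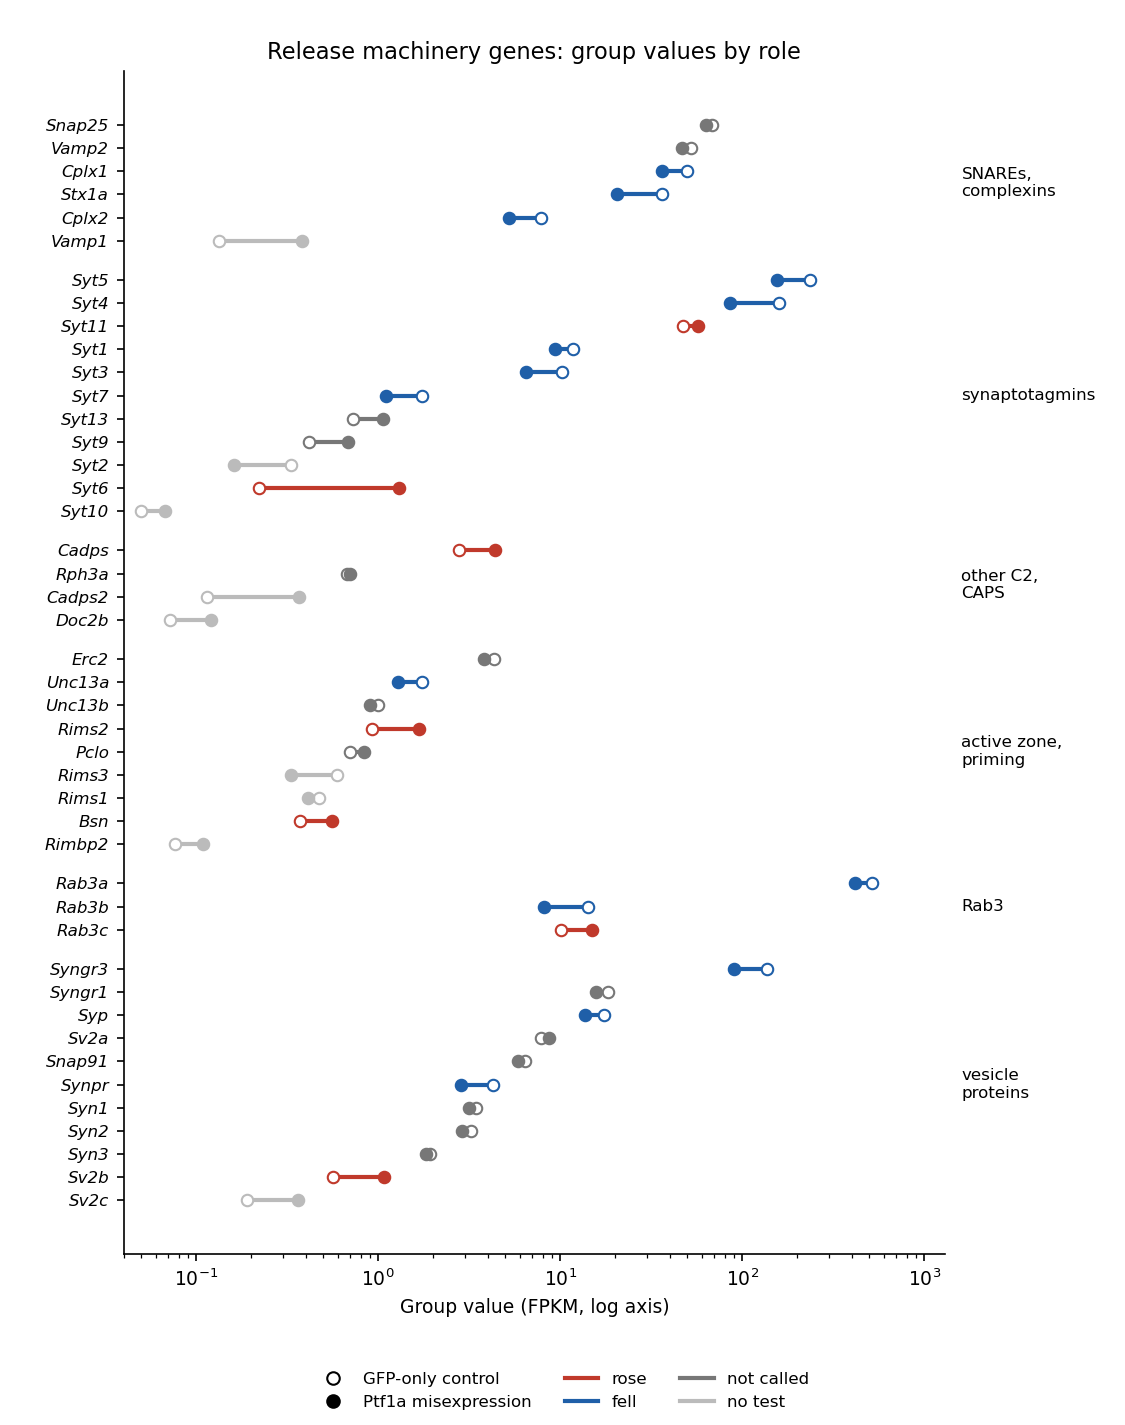
Group values in FPKM on a log axis for all 44 members, ordered by role and by control level; open circles are the GFP-only control, filled circles Ptf1a misexpression, and colour gives the call. Syt10, listed at 0 in the control, is drawn at 0.05. Fallen genes (blue) include the abundant Rab3a, Syt5, Syt4 and Syngr3, and risen genes (red) include the weak Syt6, Sv2b, Rims2 and Bsn.

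Promoter sequence from RefSeq is shown for the members that hold CAGCTG and TGGGAA, both parts of the motif recognised by the PTF1 complex, because Ptf1a is the factor that was misexpressed. Ptf1a with an E protein binds an E-box such as CAGCTG, and its partner Rbpj binds TGGGAA. Windows of 300 bases, 250 before the annotated start and the rest after it, were found for 34 of the 44 members (46 windows, build GRCm38.p6, which is not the build of the expression table). No window was found for Vamp2, Doc2b, Syngr3, Syt4, Syt5, Rims2, Snap25, Syn3, Syt7 and Syt13. On either strand CAGCTG was present in 13 of the 46 member windows (28.3%), against 16.3% of all 32851 windows in the table, and TGGGAA in 9 (19.6%), against 25.6%. CATCTG was present in 7 member windows (15.2%), against 17.2%. CAGCTG and CATCTG are both forms of the E-box CANNTG. Both CAGCTG and TGGGAA were present in 4 member windows (8.7%), against 4.34% of all windows, and these belong to Syt6 and Rab3c, which rose, and Cplx1, which fell. CATCTG and TGGGAA were together in 1 member window (2.17%), that of Syn2, which was not called, against 4.87% of all windows. The 250 bases before the start are printed below 5′ to 3′ along the gene, with CAGCTG and TGGGAA or its complement TTCCCA in capitals; the window of Rab3b, the fallen paralogue of Rab3c, holds none of them and is given for comparison.
Syt6, first start, chr3:103574995-103575244, plus strand: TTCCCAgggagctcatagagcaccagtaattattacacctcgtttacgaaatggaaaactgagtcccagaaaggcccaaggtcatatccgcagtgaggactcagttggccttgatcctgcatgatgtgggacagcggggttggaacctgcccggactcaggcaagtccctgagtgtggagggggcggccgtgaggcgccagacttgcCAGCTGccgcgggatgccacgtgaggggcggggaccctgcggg
Syt6, second start, chr3:103575876-103576125, plus strand: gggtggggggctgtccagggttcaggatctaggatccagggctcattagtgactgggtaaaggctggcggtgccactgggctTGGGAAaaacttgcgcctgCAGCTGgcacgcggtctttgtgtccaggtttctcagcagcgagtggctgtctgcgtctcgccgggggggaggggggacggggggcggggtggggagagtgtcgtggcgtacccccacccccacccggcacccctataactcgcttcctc
Rab3c, chr13:110280207-110280456, minus strand: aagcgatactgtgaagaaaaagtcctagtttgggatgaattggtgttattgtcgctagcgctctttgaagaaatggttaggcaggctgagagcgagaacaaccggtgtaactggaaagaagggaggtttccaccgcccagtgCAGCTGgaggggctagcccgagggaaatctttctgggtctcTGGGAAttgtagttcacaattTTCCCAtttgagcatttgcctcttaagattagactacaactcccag
Cplx1, chr5:108550028-108550277, minus strand: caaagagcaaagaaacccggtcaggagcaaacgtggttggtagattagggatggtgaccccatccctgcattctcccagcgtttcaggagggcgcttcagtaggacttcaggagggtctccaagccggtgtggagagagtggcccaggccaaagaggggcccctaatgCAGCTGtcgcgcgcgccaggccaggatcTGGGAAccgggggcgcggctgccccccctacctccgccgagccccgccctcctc
Rab3b, chr4:108878820-108879069, plus strand: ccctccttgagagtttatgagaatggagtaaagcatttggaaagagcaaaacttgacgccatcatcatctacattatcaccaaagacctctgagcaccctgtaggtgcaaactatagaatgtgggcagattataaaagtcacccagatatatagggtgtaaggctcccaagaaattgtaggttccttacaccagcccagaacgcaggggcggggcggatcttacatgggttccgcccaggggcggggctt

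In the second Syt6 window TGGGAA begins 168 bases and CAGCTG 149 bases before the start, and in Cplx1 the order is reversed, with CAGCTG at 82 and TGGGAA at 54 bases before it. Rab3c holds CAGCTG at 108 bases, TGGGAA at 67 bases and TTCCCA at 46 bases before the start. The first Syt6 window has them far apart, with CAGCTG 43 bases and TTCCCA 250 bases before the start. Whether or not TGGGAA was in the same window, CAGCTG was in 3 of 6 risen and 5 of 10 fallen members with a window. It was also in 2 of 10 uncalled members and 1 of 8 without a test. In the same order, TGGGAA was in 3, 1, 2 and 1 members and CATCTG in 1, 0, 4 and 2. These counts are per gene, and a gene with several windows has more chances to hold a motif. No share over all genes was computed, and a link between motif and call was not tested. The RE1 element, the 17-letter site of the repressor REST that silences neuronal genes in other cells, was searched by its consensus and was in 0 of 46 member windows and in 21 windows (0.0639%) of the whole table. These matches describe letters in a short window and are not evidence of binding.

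Among the SNAREs, the core of the fusion machine, Stx1a fell, while its abundant partners Snap25 and Vamp2 were not called. Stx1a, which encodes syntaxin-1A of the plasma membrane (chromosome 5, 135499442 to 135526969, mm9), went from 36.1 to 20.4 FPKM. Its log2 fold was -0.82 with q = 0.000329 in the authors' deposited table, and its implied standard error was 0.25. Snap25, the other plasma membrane SNARE, was not called, at 68.2 and 63.6 FPKM. Vamp2, or synaptobrevin-2, the SNARE of the vesicle, was not called either, at 52.5 and 46.5 FPKM. The ratio of Stx1a to Snap25 in FPKM was 0.529 in the control and 0.32 with Ptf1a, while that of Snap25 to Vamp2 was 1.3 and 1.37. Whether these ratios differ between the groups was not tested, since no value per sample was used. Vamp1, the second synaptobrevin, was weak, with 0.133 and 0.379 FPKM, and had no test.

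Both complexins, small proteins that clamp the assembled SNARE complex, fell. Cplx1 went from 49.9 to 36.3 FPKM and Cplx2 from 7.86 to 5.26 FPKM, with log2 folds of -0.46 and -0.58 and the same q of 0.000329 in the authors' deposited table. Their implied standard errors were 0.24 and 0.30. Cplx1 remained the more abundant of the pair, at 6.35 times Cplx2 in the control and 6.89 times with Ptf1a. Of the 5 tested genes in this role 3 fell, 0 rose and 2 were not called. All 5 are in the upper 5 bins, in which 29.7% of all tested genes fell and 12% rose.

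The synaptotagmins, C2 domain proteins of which several sense calcium for fusion, held the largest changes in both directions. Of 9 tested members 5 fell and 2 rose, or 55.6% and 22.2%, beside 19.1% and 18.7% of all tested genes. In the control Syt5 and Syt4 together made up 84.5% of the summed FPKM of the 11 synaptotagmins, and 75.8% with Ptf1a. Syt5 (chromosome 7, 4491367 to 4498169, mm9) went from 236 to 156 FPKM and Syt4 from 159 to 86.0 FPKM. Syt4, which lacks a calcium-binding residue in its first C2 domain and is found on dense-core vesicles, had the most negative log2 fold of all tested members, -0.89 with q = 0.000329 in the authors' deposited table, for an implied standard error of 0.22. Syt5 had a log2 fold of -0.60 with the same q in the authors' deposited table, for an implied standard error of 0.20.

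Syt11, the closest relative of Syt4 and likewise without calcium binding, rose (chromosome 3, 88548623 to 88576521, mm9). It went from 47.0 to 57.0 FPKM, and the authors' deposited table gave a log2 fold of 0.28 (q = 0.0195), for an implied standard error of 0.22. The ratio of Syt4 to Syt11 was thus 3.39 in the control and 1.51 with Ptf1a, and Syt11 went from 10% to 17.9% of the family's summed FPKM. This rise was the smallest of the 7, at 1.21-fold.

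Syt6 and Syt3 form a second such pair. Both belong to a subfamily, with Syt10, whose members dimerise through cysteines near the amino terminus. Syt6 (chromosome 3, 103379204 to 103439102, mm9) was at 0.221 FPKM in the control and reached 1.30 FPKM, a 4.35-fold rise on the log2(FPKM + 0.1) scale. Its log2 fold was 2.55 with q = 0.000329 in the authors' deposited table, and its implied standard error of 0.73 was wide, beside a median of 0.59 over tested genes in its bin. With a pseudocount of 1 its log2 difference was 0.91 in place of 2.12. Syt3 went the other way, from 10.2 to 6.48 FPKM, with a log2 fold of -0.65 and q = 0.000329 in the authors' deposited table. Even so, Syt6 stood at 0.2 times the level of Syt3 with Ptf1a, from 0.0217 times in the control. Syt10 was listed at 0 in the control and stood at 0.0675 FPKM with Ptf1a, without a test.

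The calcium sensors of fast and slow release both fell by modest amounts. Syt1, the sensor for synchronous release in forebrain neurons, went from 11.7 to 9.35 FPKM, and Syt7, which acts in asynchronous release and facilitation, from 1.73 to 1.10 FPKM. In the authors' deposited table q was 0.0316 for Syt1 and 0.0039 for Syt7. Syt9 (0.417 and 0.685 FPKM) and Syt13 (0.723 and 1.06 FPKM) were not called, and Syt2, the fast sensor of hindbrain and spinal synapses, had no test at 0.333 and 0.161 FPKM. Summed over the 11 genes, synaptotagmin FPKM was 468 in the control and 319 with Ptf1a. Without Syt4 and Syt5 the sum was 72.3 and 77.2. Most of that remainder was Syt11 (47.0 and 57.0 FPKM), which rose, as did the weak Syt6, while Syt1, Syt3 and Syt7 fell.

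**Figure D3:**
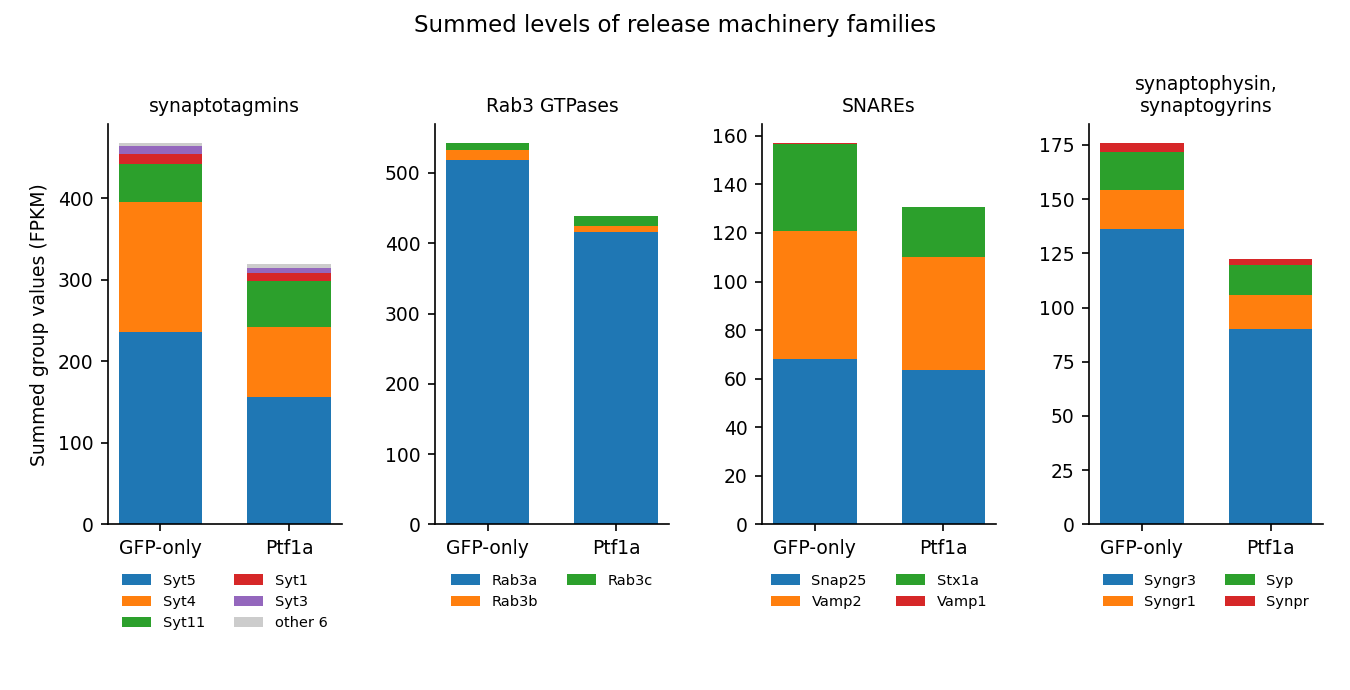
Stacked group values in FPKM for 4 gene families in the GFP-only control and with Ptf1a; each colour is 1 gene, each panel has its own axis from 0, and no error can be drawn because each group has a single value. The synaptotagmin sum was 468 and 319, and 72.3 and 77.2 without Syt4 and Syt5, most of it then Syt11. Rab3a makes up most of its family in both groups, and Stx1a went from 36.1 to 20.4.

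The Rab3 GTPases, which recruit vesicles to the active zone, were all called but not in the same direction. Of all tested genes 37.7% were called. Rab3a, the main neuronal Rab3 (chromosome 8, 73278578 to 73284820, mm9), was the most abundant member of all and went from 518 to 416 FPKM, with q = 0.00986 in the authors' deposited table. As given above, genes of its abundance had the same median difference. Mpv17l2, which shares its locus in the table, was not called, at 57.8 and 58.5 FPKM. Rab3b (chromosome 4, 108551675 to 108644682, mm9) fell to 8.19 FPKM from 14.2 FPKM, at a log2 fold of -0.80 with an implied standard error of 0.30. Rab3c (chromosome 13, 110844396 to 111070414, mm9) rose to 14.9 FPKM from 10.1 FPKM, at a log2 fold of 0.56 with an implied standard error of 0.25. Both had q = 0.000329 in the authors' deposited table. The order of this pair was therefore inverted in the group values, with Rab3b at 1.41 times Rab3c in the control and 0.549 times with Ptf1a. Whether this ratio differs between the groups was not tested. Their promoter windows are among the sequences shown above. Rab3a was 95.5% of the summed FPKM of the 3 genes in the control and 94.7% with Ptf1a.

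Active zone scaffolds and priming factors were weak in both groups, with all 9 members at or below 4.32 FPKM, and 3 of them had no test. Of the 6 tested, 2 rose and 1 fell, or 33.3% and 16.7%. All 6 are in the lower 5 bins, in which 25.3% of all tested genes rose and 8.37% fell. Rims2, a RIM protein that links Rab3, Munc13 and calcium channels (chromosome 15, 39029832 to 39515918, mm9), went from 0.926 to 1.67 FPKM, with a log2 fold of 0.85 and q = 0.00161 in the authors' deposited table. Bsn, the giant scaffold Bassoon, went from 0.373 to 0.559 FPKM (q = 0.0144 in the authors' deposited table). Its log2 difference of 0.48 was close to the median of 0.47 in its bin of weak genes. Unc13a, which encodes the priming factor Munc13-1, went from 1.74 to 1.29 FPKM (q = 0.0365 in the authors' deposited table).

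The other active zone members were not called or had no test. Erc2, an ELKS family scaffold also called CAST, stood at 4.32 and 3.82 FPKM, Unc13b (Munc13-2) at 0.999 and 0.905 FPKM, and Pclo, the scaffold Piccolo, at 0.697 and 0.838 FPKM. Rims1 (0.473 and 0.412 FPKM), the short RIM gene Rims3 (0.596 and 0.333 FPKM) and Rimbp2, a RIM-binding protein (0.0762 and 0.109 FPKM), had no test. Rims2 made up 46.4% of the summed FPKM of the 3 RIM genes in the control and 69.1% with Ptf1a, a share that rests on these weak values.

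Among the remaining C2 domain genes 1 of 2 tested members rose, beside 18.7% of all tested genes. Cadps, which encodes CAPS-1, a priming factor best known for dense-core vesicles, went from 2.79 to 4.37 FPKM, with a log2 fold of 0.65 and q = 0.000329 in the authors' deposited table, for an implied standard error of 0.34. Cadps2 stood at 0.114 and 0.365 FPKM and Doc2b, a calcium sensor linked to spontaneous release, at 0.0720 and 0.121 FPKM, both without a test. Rph3a, the Rab3 effector rabphilin, was not called, at 0.673 and 0.697 FPKM.

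Of the 10 tested genes for vesicle membrane and vesicle-associated proteins, 3 fell, 1 rose and 6 were not called. These are 30% and 10%, beside 19.1% and 18.7% of all tested genes. All 3 falls were in the synaptophysin and synaptogyrin family of tetraspan vesicle proteins. Syngr3 (chromosome 17, 24822037 to 24826894, mm9) went from 136 to 90.2 FPKM, and the authors' deposited table gave a log2 fold of -0.59 (q = 0.000329), for an implied standard error of 0.21. Synpr (synaptoporin) went from 4.25 to 2.84 FPKM and Syp (synaptophysin) from 17.3 to 13.7 FPKM, with q of 0.0105 and 0.0327 in the authors' deposited table. Syngr1, the fourth of this family, was not called, at 18.2 and 15.7 FPKM.

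The SV2 glycoproteins, which are also receptors for botulinum neurotoxins, showed a rise in the weaker Sv2b (chromosome 7, 82259781 to 82476305, mm9), from 0.563 to 1.08 FPKM. Its log2 fold was 0.94 with q = 0.00161 in the authors' deposited table, and its implied standard error was 0.54. Sv2a, the main form, was not called, at 7.88 and 8.67 FPKM, and Sv2c at 0.189 and 0.361 FPKM had no test.

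None of the 3 synapsins, phosphoproteins that tether vesicles to the actin cytoskeleton, was called by the authors' Cuffdiff test or when its statistic was read as a normal deviate. Syn1 stood at 3.45 and 3.14 FPKM, Syn2 at 3.22 and 2.90 FPKM and Syn3 at 1.92 and 1.82 FPKM. The unadjusted p values in the authors' deposited table were 0.774, 0.475 and 0.716, so 0 of the 3 was under 0.05 without adjustment either. The implied standard error of Syn1 was 0.98, wider than for other members, so a modest change in Syn1 was not detectable. A total of 8 members share their locus in the authors' table with another gene (Syt1, Cadps2, Rab3a, Rab3b, Sv2b and the synapsins), so their values depend on how fragments were divided there. Each synapsin row shares its locus in the table with a gene for a tissue inhibitor of metalloproteinases that lies inside it. Of these Timp4, at the Syn2 locus, rose from 0.689 to 3.31 FPKM (q = 0.00717 in the authors' deposited table), while Timp1 (0.101 and 0.722 FPKM) and Timp3 (0.590 and 1.35 FPKM) were not called. The Syn1 locus is also shared with Araf, which was far more abundant than Syn1, at 97.2 and 86 FPKM, and was not called. Snap91, the clathrin adaptor AP180 that retrieves vesicle membrane, was not called, at 6.38 and 5.86 FPKM.

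**Figure D4:**
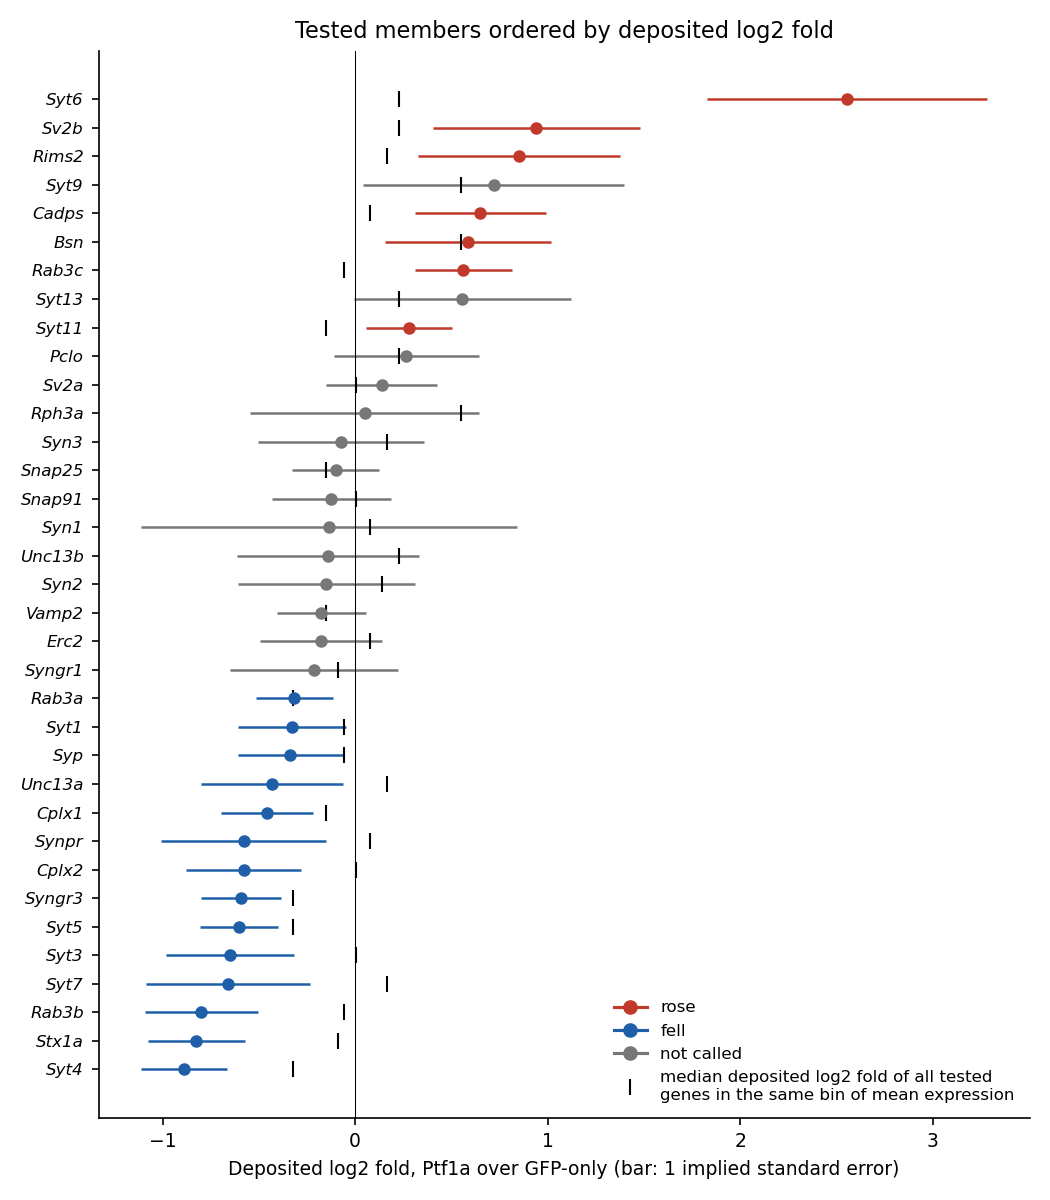
Deposited log2 fold (Ptf1a over GFP-only) of the 35 tested members, ordered by size, with bars of 1 implied standard error and colours for the call; black ticks give the median deposited log2 fold of all tested genes in the same bin of mean expression. Syt6 leads the risen genes at 2.55, and Syt4, Stx1a and Rab3b close the list at -0.89, -0.82 and -0.80.

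The rest of the release and recycling pathway was represented by 85 genes outside the 44. Of 70 tested genes 15 fell and 10 rose, or 21.4% and 14.3%, near the 19.1% and 18.7% of all tested genes, and the median log2 difference was -0.11. Among 11 other SNAREs 3 rose and 2 fell: Stx2, a plasma membrane syntaxin, went from 0.328 to 1.09 FPKM and Snap23, the broadly expressed relative of Snap25, from 3.06 to 5.86 FPKM, while Vamp7 of the late endosome went from 44.1 to 28.8 FPKM. Of 10 tested SNARE regulators 2 rose and 2 fell. Stxbp6 (amisyn), which binds syntaxin in place of a VAMP, went from 0.847 to 4.02 FPKM, and the authors' deposited table gave a log2 fold of 2.25 (q = 0.000329). Prrt2 and Stxbp2 fell, from 10.4 to 6.46 and from 16.3 to 10.5 FPKM.

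Vesicle proteins outside the members fell in 5 of 13 and rose in 2. The synaptogyrin gene of non-neuronal cells, Syngr2, went from 0.983 to 3.09 FPKM, and is the other risen gene beside the proton pump subunit Atp6v0a1 (3.78 to 7 FPKM). All 5 falls were among the 7 tested pump subunits, such as Atp6v1b2, from 45.6 to 33.5 FPKM. Of these Atp6v0c, Atp6v0d1 and Atp6v1e1 are in bin 10, in which 58.2% of all tested genes fell. With bin medians subtracted their log2 differences were -0.05, 0.03 and 0.07, against -0.29 for Atp6v1b2 and -0.25 for Atp6v1g2. Of 18 tested active zone and Rab3 cycle genes 3 rose and 1 fell. The fallen gene, Rabac1, encodes an acceptor of prenylated Rab proteins and went from 299 to 162 FPKM, and the authors' deposited table gave a log2 fold of -0.88 (q = 0.000329). Ppfia1, a liprin, and the scaffold Cask rose, from 1.32 to 1.91 and from 5.52 to 7.51 FPKM. Endocytosis genes fell in 4 of 14 and rose in 0, led by the clathrin light chains Cltb (55.3 to 34.4 FPKM) and Clta (195 to 129 FPKM) and by Bin1 (30.5 to 21.1 FPKM). The fallen share was 28.6%, beside 19.1% of all tested genes, and the list median was -0.05 with bin medians subtracted. Of 4 tested relatives among synaptotagmin and Doc2 genes 1 fell, Syt16, from 12.7 to 8.41 FPKM.

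Markers of cell classes moved with these changes. Of 11 tested genes marking neurons of any kind 9 fell and 0 rose, with a median log2 difference of -0.49. Their summed level was 2855 and 1556 FPKM. Stmn2 (1504 and 794 FPKM) and Gap43 (923 and 465 FPKM) made up most of this sum. Tubb3 was left out of that sum because it was listed at 0 in the control in a row marked as holding too much data. Pyramidal markers fell in 8 of 12, with a median of -0.42 and sums of 1935 and 1352 FPKM. Neurod6 alone was 1717 and 1190 FPKM of these. The tested release members, with a median of -0.14, summed to 1436 and 1090 FPKM. The sum over all tested genes was also lower with Ptf1a, at 903548 and 726558 FPKM.

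Radial glia markers, for the neural stem cells of the cortex, rose in 10 of 10, with a median log2 difference of 1.45. Their sums were 1804 and 3464 FPKM, of which Fabp7 alone was 1652 and 3095 FPKM. Basal progenitor markers rose in 4 of 5 and cycling cell markers in 5 of 6, with medians of 1.31 and 1.18. Markers of interneurons, which also use this machinery, rose in 4 of 5 tested, from a summed 6.86 to 15.1 FPKM, with Slc32a1 at 0.0658 and 0.104 FPKM. Red blood cell markers fell in 2 of 4 (sums 141 and 60.2 FPKM) and microglial markers in 1 of 6 (17.2 and 12.2 FPKM). Endothelial and pericyte markers rose in 2 of 3 tested (3.52 and 6.84 FPKM), with Cdh5 and Kdr below 0.05 FPKM in both groups. With the test statistic read as a normal deviate, 10 of 10 radial glia, 3 of 5 basal progenitor and 5 of 6 cycling cell markers were called. The same reading called 3 of 11 tested markers of neurons of any kind, 2 of 12 pyramidal and 1 of 5 tested interneuron markers. With bin medians subtracted, list medians were 1.45 for radial glia, -0.40 for neurons of any kind and -0.27 for pyramidal markers. The part of these cell classes in the members' changes was not tested.

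**Figure D5:**
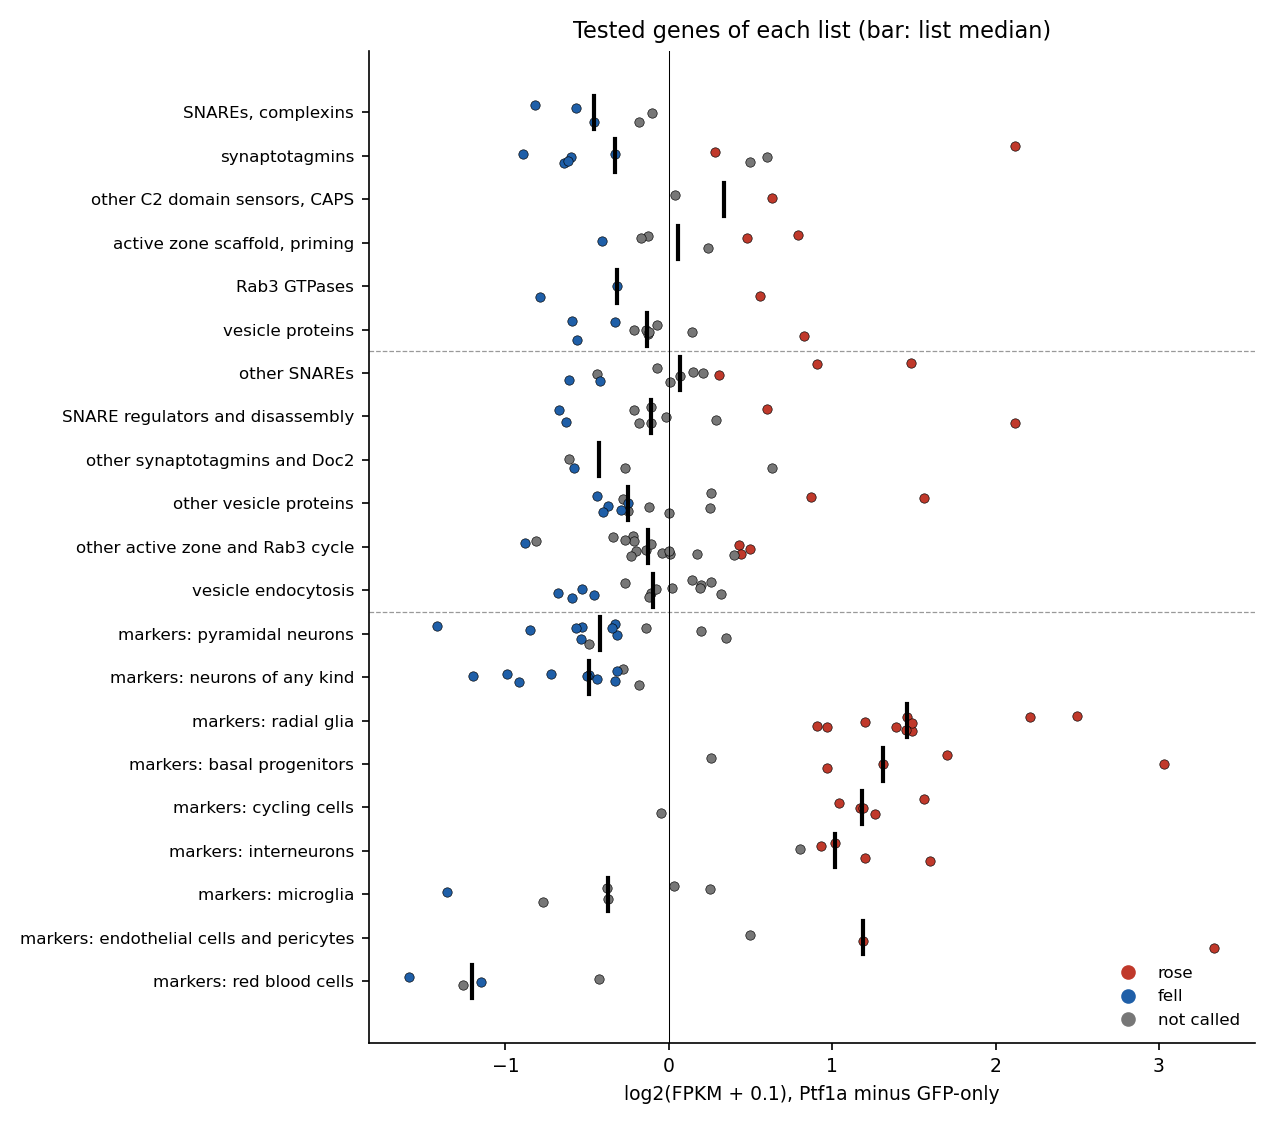
Log2(FPKM + 0.1) differences (Ptf1a minus GFP-only) of the tested genes in the 6 member roles (top block), 6 lists of other pathway genes (middle) and 9 marker lists (bottom); each point is 1 gene, coloured by call, with vertical scatter for legibility, and the bar is the list median. The role medians run from -0.46 (SNAREs and complexins, all tested genes below 0) to 0.34 (other C2 domain genes, both tested genes above 0), while all radial glia markers lie above 0 with a median of 1.45 and all tested markers of neurons of any kind lie below it.

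At a q under 0.01, 10 members fell and 5 rose: the calls of Syt1, Syp, Synpr and Unc13a and those of Syt11 and Bsn were lost. The authors' p values limit how firmly single members can be read. The smallest deposited p, 5e-05, was shared by 1803 tested genes, among them 8 fallen and 3 risen members, so these 11 cannot be ranked by it. The normal reading of the test statistic, with two-sided p adjusted over all tested genes, called 724 genes in all.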

How the data were processed

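RNA from sorted cells (2.1 to 7.8 ng per sample) was amplified by a SMARTer protocol for low input and read from both ends at 50 bp, per the labels' protocols. Reads were processed by the authors with CASAVA 1.8.2 and TopHat2 2.0.8 against mm9, then Cufflinks 2.1.1 and Cuffdiff, per the submitters' processing notes; annotation and parameters are not given in the sources used here. The authors deposited 1 FPKM value per group and gene, per the file headers. Beside it stand the authors' log2 fold (Ptf1a over control), a signed score as test statistic, and a deposited p-value and q-value. The heading PIG was read as the Ptf1a group, because the other heading was GFP.

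Of 23234 rows 11876 carried a test. A q under 0.05 equals the authors' own significance mark, and no test over samples could be refitted. Members and lists were chosen with earlier results of these data known. Every member is named, and of other pathway genes up to 3 called per list with the largest difference. The Timp genes, Araf, Mpv17l2, the pump subunits other than Atp6v0a1 and Atp6v1b2, Slc17a7, Cux2, Fabp7 and Slc32a1 were added after their values were seen. Stx4, Stxbp3 and Map2 were matched through RefSeq synonyms, and Hba-a1 and Hbb-b1 were not matched. Table starts were read as counting from 0 (5247 of 20792 spans then equalled a span in a later annotation, against 698 otherwise). The normal p was tested on simulated statistics. Some results are not reported here. Depth per sample is unknown. The deposited p-values are those of the authors' Cuffdiff test and cover only these samples. How far they reflect the spread between samples could not be checked without values per sample. Python 3.11.15, pandas 2.3.3 and scipy 1.17.1 were used.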

Additional observations from a re-analysis of the deposited data

How the results depend on the processing

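No paired analysis was possible because the table holds 1 merged value per group, and for the same reason no sample could be left out in turn. The median log2 difference of members, -0.14, lay between -0.19 and -0.11 under the 4 alternatives chosen at the start and was -0.22 with bin medians subtracted, an alternative chosen after seeing the data. Of the recomputed log2 differences of single members 99 moved by no more than their implied standard error, 5 moved by more and 1 called value changed sign. The 99 include all 35 with the median of all tested genes subtracted, which at -0.01 was too small to move any member. A pseudocount of 1 moved 1 by more than its error. Bin medians moved 4 by more, reversed 1 and left 30 the same. Rab3a changed sign, to 0.01, with the median of its abundance bin subtracted, as did the uncalled Snap25 (to 0.05) and Rph3a (to -0.42), which by construction removes what genes of like abundance share. The same setting moved Syt4 to -0.57, Syt5 to -0.28, Syngr3 to -0.27 and Bsn to 0.01.

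Counts of calls depended more on the rule. With the normal p, 2 members fell and 1 rose in place of 14 and 7 (Stx1a and Syt4 down, Syt6 up, with 0 in every other role), and among other pathway genes 1 fell and 1 rose in place of 15 and 10. With a 2-fold minimum 0 members fell and 1 rose (Syt6), and 0 and 3 other pathway genes. With a 1.5-fold minimum 7 members fell: 1 SNARE or complexin, 1 Rab3 gene, 1 vesicle protein, 0 fallen active zone genes and the others synaptotagmins. With it 5 members rose, among them 1 synaptotagmin and 0 Rab3 genes, and other pathway genes gave 7 falls and 6 rises. At a q under 0.01 the counts were 1 risen synaptotagmin, 1 risen and 0 fallen active zone genes, 1 fallen vesicle protein and 6 risen pathway genes; at a q under 0.1, 4 synaptotagmins rose. Among genes of at least 5 FPKM 2 members rose (1 synaptotagmin, and Rab3c), with 0 active zone genes called, 0 other C2 domain genes, 0 risen vesicle proteins and 5 risen pathway genes. With at least 1 FPKM 1 active zone gene rose. Precision is limited by 2 control samples, by amplification from little RNA and by the weak level of most active zone genes.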

Other observations

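Several genes of the pathway have a relative that is expressed in most cell types, and 5 such pairs, chosen after their values were seen, are set side by side here. In each pair the broadly expressed gene rose, while the neuronal one fell or was not called. Because of that choice, this pattern was largely set beforehand. Among the 11 other SNAREs only 3 rose, Stx2, Snap23 and Vamp3, and all of them are in these pairs. Another 2 fell, Snap47 (355 to 266 FPKM) and Vamp7, and 6 were not called, among them Stx3 and Stx4. A general shift from neuronal to broadly expressed relatives was not tested. The ratio of Snap25 to Snap23 in FPKM was 22.3 in the control and 10.8 with Ptf1a. For Stx1a to Stx2 it was 110 and 18.6, for Syngr3 to Syngr2 138 and 29.1, for Vamp2 to Vamp3 2.92 and 2.08, and for Erc2 to Erc1 1.16 and 0.754. The neuronal gene was thus still the more abundant of the pair with Ptf1a, except for Erc2 (3.82 FPKM beside 5.06 FPKM for Erc1). Vamp3 and Erc1 each passed narrowly, with q = 0.0447 in the authors' deposited table, and Stx2 and Syngr2 were weak in the control, at 0.328 and 0.983 FPKM. Whether the ratios differ between the groups was not tested.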
